A study of Mus musculus with 9 samples.

Results

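Lung capillaries are lined by endothelial cells that carry a set of specialized proteins, and 10 genes for such proteins were read in RNA-seq libraries of cultured mouse lung endothelial cells (MLEC). The genes were chosen by name, as *Car4*, *Plvap*, *Gpihbp1*, *Kit*, *Hpgd*, *Tmem100*, *Cd36*, *Fabp4*, *Cav1* and *Cav2*, out of 33353 symbols that named a single locus. All 10 were found, and 8 of them reached the minimum of 2 FPKM (sequenced fragments scaled by transcript length and by library size) in the mean of any group that was asked of a gene before it was tested. Each of the 9 libraries came from a separate isolation from the pooled lungs of 4 adult mice aged 10 to 12 weeks on a C57BL/6J background, by magnetic beads against ICAM2 and culture. The ECtrl group (3 libraries) carried the Cdh5-Cre transgene with intact Jnk1 and Jnk2 (Jnk1+/+ Jnk2+/+). The EfCtrl group (3 libraries) lacked the transgene and carried floxed alleles (Jnk1LoxP/LoxP Jnk2LoxP/LoxP). The E3KO group (3 libraries) carried both the transgene and the floxed alleles. Mice of all 3 groups were Jnk3-/-, so the controls were not wild type, and Cdh5-Cre is driven by the VE-cadherin promoter, which is active in endothelium from embryonic life on and not in lung endothelium alone. The question put to these genes was how much of their expression remained in culture, and whether E3KO MLEC differed from either control group.

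The alveolar capillary bed is made of general capillary cells and of aerocytes, large flat cells specialized for gas exchange. Capillary endothelium takes up fatty acids released from lipoproteins, breaks down prostaglandins, and holds many caveolae, small flask-shaped pits of the plasma membrane that are built from caveolins and from the cavin coat proteins. Endothelial cells lose part of their organ-specific expression when they are taken from the tissue into culture.

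The targeted genes were read first. *Mapk8* (Jnk1) stood at 14.0 to 17.9 FPKM in the 6 controls and at 8.77 and 4.65 in replicates 2 and 3 of E3KO. It stood at 20.7 in the library labelled E3KO replicate 1, above all 6 controls, although the label gives a loss of Jnk1. *Mapk9* (Jnk2) stood at 42.7 to 50.9 FPKM in the controls and at 27.6, 35.1 and 20.7 in E3KO replicates 1 to 3, and *Mapk10* (Jnk3) did not exceed 0.270 FPKM in any library. FPKM were summed over whole genes, so a transcript that lost a floxed exon still counted, and the *Mapk8* value alone does not settle the label. The library labelled E3KO replicate 1 also had a sum of 9841810 FPKM, against 656089 to 908401 in the other 8 libraries, and without the 5 symbols that averaged 5000 FPKM or more the 9 sums ran from 388537 to 433172. The number of fragments behind a value is unknown. Each call against both controls together is also given without this library.

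The 10 genes stood at very unequal levels in these cultures. In the mean of the 6 controls (SD, n = 6) the order was *Fabp4* (2052 ± 283 FPKM), *Cav1* (671 ± 36.1), *Plvap* (579 ± 119), *Cav2* (96.7 ± 13.7), *Kit* (28.6 ± 5.17), *Cd36* (16.6 ± 2.66), *Gpihbp1* (9.80 ± 2.84), *Tmem100* (8.44 ± 3.30) and *Hpgd* (0.574 ± 0.318), with *Car4* last. Each gene exceeded the next one in all 6 controls, except that *Cav1* exceeded *Plvap* in 5 of 6 and *Gpihbp1* exceeded *Tmem100* in 4 of 6. These 2 pairs of neighbours therefore did not separate beyond the spread between libraries. FPKM are per length of transcript, so that levels can be compared between genes.

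*Fabp4*, which encodes a fatty acid binding protein of capillary endothelium and fat cells, lay at the 99.9th percentile of the symbols above 0 FPKM in the median control library. *Cav1* lay at 99.6 and *Plvap* at 99.5. *Plvap* encodes the protein of the diaphragms that close caveolae and fenestrae. *Cav2* lay at 95.4, *Kit* at 83.1, *Cd36* at 72.4, *Gpihbp1* at 62.7 and *Tmem100* at 60.2, so that 8 of the 10 genes stood above the median of the symbols detected. *Hpgd* lay at 26.9. These percentiles describe the cultures alone, since no library of fresh lung endothelium was analysed here.

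*Car4*, which encodes a carbonic anhydrase anchored to the luminal face of lung capillary endothelium, was listed at 0 FPKM in 8 of the 9 libraries and at 0.0561 in EfCtrl replicate 1. *Hpgd* encodes the enzyme that begins the breakdown of prostaglandins. It was listed at 0.667, 1.07 and 0.166 FPKM in ECtrl, at 0.441, 0.366 and 0.733 in EfCtrl, and at 0.0203, 0.907 and 0.655 in E3KO. The low value was that of the library labelled E3KO replicate 1, and the other 8 libraries overlapped. Neither gene entered the tests, because both remained under 2 FPKM in every group. When no minimum was set, *Hpgd* differed by -0.07 ± 0.25 (SE) on the log2(FPKM + 1) scale between E3KO and the mean of both controls (limma, adjusted p = 0.917), a scale that compresses differences of genes this low.

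**Figure D1:**
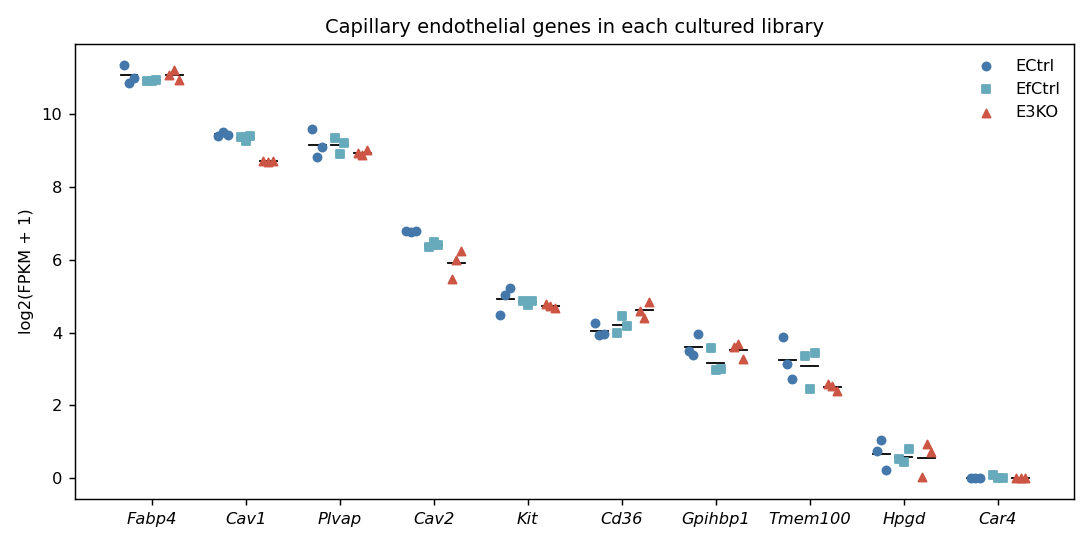
Level of each of the 10 genes on the log2(FPKM + 1) scale (y axis) in each of the 9 libraries, ordered by their mean in the controls, with a bar at each group's mean on this scale. *Fabp4*, *Cav1* and *Plvap* stood highest, *Car4* lay at or near 0 throughout, and the 3 E3KO points of *Cav1* and of *Cav2* lay below all 6 control points.

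The labels call the cells lung endothelial cells, and 8 pan-endothelial markers (*Cdh5*, *Pecam1*, *Kdr*, *Tek*, *Tie1*, *Icam2*, *Erg* and *Esam*) summed to 1931 to 2482 FPKM in the 9 libraries. *Cdh5*, which encodes VE-cadherin, stood at 613 to 943 FPKM. Markers that define capillary cells in the lung were not all present. Among 7 aerocyte genes, *Tbx2*, *Prx*, *Fibin* and *Emp2* did not exceed 2.66 FPKM in any library, while *Ednrb* and *Apln* were at 50.8 FPKM or more. Among 7 general capillary genes, *Aplnr* and *Sema3c* did not exceed 1.03 FPKM and *Cd93* and *Eltd1* were at 144 or more. Markers of lymphatic endothelium were abundant. *Lyve1* stood at 1513 to 2050 FPKM, and *Prox1*, the transcription factor that defines lymphatic identity, stood at 117 to 158 in the controls. The 10 genes are therefore described here by name, and their levels are not read as a share of capillary cells.

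Of the 8 genes tested, *Cav1* and *Cav2* fell in E3KO MLEC and none rose. *Cav1* stood at 61.9% and *Cav2* at 62.5% of the mean of the 6 controls. All 3 E3KO libraries lay below all 6 controls for each, as for 11.5% of all genes tested. In limma fitted to log2(FPKM + 1) of all genes, 2 of the 8 genes passed an adjusted p of 0.05 in E3KO against the mean of both controls, where 509 of 10605 genes tested (4.8%) passed. Of all genes tested, 3.26% passed as lower in E3KO and 1.54% as higher. The median difference of the 8 genes was -0.18, beside -0.08 over all genes tested. The 509 genes were 163 higher and 346 lower. With each library centred on its median they were 477 (209 higher and 268 lower), and with each group scaled to the group FPKM of the authors, a scaling tried after the data were seen, they were 500 (304 higher and 196 lower), with the median over all genes at -0.01 and 0.03. In bulk libraries such as these, fewer cells of a type and less RNA per cell cannot be told apart.

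*Cav1*, which encodes the main structural protein of caveolae, stood at 674, 725 and 683 FPKM in ECtrl, at 660, 613 and 669 in EfCtrl, and at 415, 410 and 421 in E3KO. The groups did not overlap, and the 3 E3KO libraries differed little from each other. The E3KO mean of 415 ± 5.93 (SD, n = 3) was 59.8% of the ECtrl mean and 64.2% of the EfCtrl mean. On the log2 scale *Cav1* differed by -0.69 ± 0.08 (SE) from the mean of both controls (adjusted p = 0.0109), by -0.74 from ECtrl (adjusted p = 0.0188) and by -0.64 from EfCtrl (adjusted p = 0.0326). *Cav1* was the single member called against either control alone, where 2.25% and 0.952% of all genes passed against ECtrl and EfCtrl. Without the library labelled E3KO replicate 1 the difference from both controls was again -0.69 (adjusted p = 0.0235), and *Cav1* was called against ECtrl alone (-0.74, adjusted p = 0.0331) but not against EfCtrl alone (-0.64, adjusted p = 0.0510). Centring gave -0.62 (adjusted p = 0.0129) and scaling to the group FPKM -0.56 (adjusted p = 0.0153). Without E3KO replicate 3 *Cav1* differed by -0.70 and was not called (adjusted p = 0.0672), in a fit that called 9 genes in all.

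*Cav2* encodes a second caveolin, which joins CAV1 in mixed oligomers and depends on it to reach the cell surface. It stood at 109, 107 and 110 FPKM in ECtrl, at 80.9, 88.9 and 83.6 in EfCtrl, and at 43.4, 63.1 and 74.9 in E3KO. The E3KO libraries lay below all the controls, and they were far more spread than for *Cav1*, with the library labelled replicate 1 lowest. *Cav2* differed by -0.69 ± 0.16 (SE) from the mean of both controls (adjusted p = 0.0475), by -0.87 from ECtrl (adjusted p = 0.0522) and by -0.51 from EfCtrl (adjusted p = 0.205), so that neither control alone gave a call. Without the library labelled E3KO replicate 1 the difference from both controls was -0.47 (adjusted p = 0.0426). The call of *Cav2* was lost when each library was centred on its median (-0.62, adjusted p = 0.0613) or scaled to the group FPKM (-0.57, adjusted p = 0.0838), and it was lost when any 1 of the other 8 libraries was left out, with an adjusted p of up to 0.109.

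The exact two-sided permutation test of the 3 E3KO against the 6 control libraries gave p = 0.0119 for both genes, the smallest that its 84 splits allow. Adjusted over all genes tested this was 0.0867, and no gene of the 10605 passed, since 1457 genes share this smallest p. In all, 2712 genes had a permutation p under 0.05 before adjustment. Libraries of E3KO lay below all 6 controls for 11.5% of all genes tested and above them for 5.18%. An exact permutation test of 3 against 3 cannot go below p = 0.10, so single controls were compared by the overlap of their values. The share of all genes that do not overlap between 3 and 3 libraries was not counted. Such a lack of overlap is therefore given below as a description only.

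Neither caveolin was called between the control groups. The difference of EfCtrl minus ECtrl was -0.36 ± 0.18 (SE) on the log2 scale for *Cav2* (limma, adjusted p = 1, unadjusted p = 0.0794), and -0.10 ± 0.09 for *Cav1* (adjusted p = 1, unadjusted p = 0.305). For both genes all EfCtrl values lay below all ECtrl values. No gene was called between EfCtrl and ECtrl (0.0%), and 195 of 10605 had an unadjusted p under 0.05. The ratio of *Cav1* to *Cav2* FPKM was 6.16, 6.76 and 6.20 in ECtrl, 8.16, 6.89 and 7.999 in EfCtrl, and 9.56, 6.49 and 5.63 in E3KO. The ratio thus overlapped between E3KO and both control groups. Over the 9 libraries the 2 genes had a Pearson r of 0.83, a description of points that share the difference between groups.

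The 2 genes are neighbours on the forward strand of chromosome 6 (mm10), *Cav2* at 17281185 to 17289115 and *Cav1* at 17306335 to 17341452, with 25150 bases between their annotated starts. The deposited values of both genes are listed under the same locus, 17197751 to 17385604, which spans both. How fragments were divided between them was not tested. GENCODE M21 places an antisense gene, Gm15581, over both, and whether the counting used strand is not given in the sources used here. The 250 bases before the start of each are shown because these are the members called, taken from RefSeq on GRCm38.p6, forward strand, 5′ to 3′. Capitals mark TGANTCA, the letters of the site bound by AP-1, a transcription factor family that includes c-Jun, a substrate of JNK. Its reverse complement has the same letters, so that 1 search covers both strands.
Cav2, chr6:17280935-17281184: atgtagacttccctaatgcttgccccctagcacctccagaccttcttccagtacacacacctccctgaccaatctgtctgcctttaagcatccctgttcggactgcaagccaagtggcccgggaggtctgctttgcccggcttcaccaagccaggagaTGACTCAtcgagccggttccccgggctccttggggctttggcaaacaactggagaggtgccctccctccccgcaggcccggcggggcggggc
Cav1, chr6:17306085-17306334: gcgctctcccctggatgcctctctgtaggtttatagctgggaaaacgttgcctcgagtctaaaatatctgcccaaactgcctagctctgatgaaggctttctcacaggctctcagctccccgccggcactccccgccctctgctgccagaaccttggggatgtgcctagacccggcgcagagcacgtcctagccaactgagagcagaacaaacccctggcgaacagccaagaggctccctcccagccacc
The window searched ran from 250 bases before to 50 bases after each start. *Cav2* held 1 match, TGACTCA, which begins 92 bases before the start. *Cav1* held none in the window shown or at a second start, at chr6:17307390-17307689. Such a match was found in 2565 of 32851 promoters of the table (7.81%). The table held 8 promoters of 6 of the 10 genes, and *Cd36*, *Kit*, *Hpgd* and *Car4* had no match. A match of letters is a description and not a bound site.

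**Figure D2:**
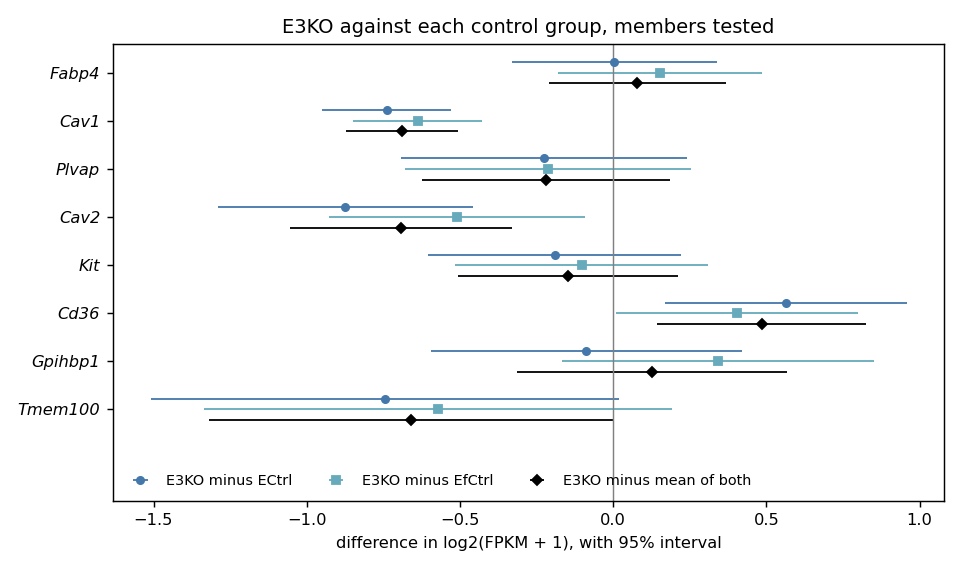
Difference in log2(FPKM + 1) between E3KO and ECtrl, EfCtrl or the mean of both (x axis), with limma's 95% interval as bars, for the 8 genes tested. The intervals of *Cav1* and *Cav2* lay below 0 against both controls and those of *Cd36* above 0, and the intervals of the other 5 genes reached or crossed 0.

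Cavins coat caveolae together with the caveolins, and 2 of the 3 cavins tested fell. The list of other caveolar genes held 7, of which 5 were tested in E3KO against the mean of both controls. Of these 5, 2 fell and none rose, where 3.26% of all genes tested fell and 1.54% rose. The median difference of the 5 was -0.58, beside -0.08 over all genes tested. *Sdpr* (cavin 2) stood at 202, 125 and 133 FPKM in ECtrl, at 143, 126 and 143 in EfCtrl, and at 92.4, 81.0 and 86.8 in E3KO. It differed by -0.72 ± 0.16 (SE) with an adjusted p of 0.0417. *Prkcdbp* (cavin 3) stood at 24.03, 11.2 and 17.9 FPKM in ECtrl, at 18.2, 13.4 and 18.4 in EfCtrl, and at 6.14, 7.52 and 6.65 in E3KO, a difference of -1.19 ± 0.22 (SE) with an adjusted p of 0.0251.

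*Ptrf* (cavin 1), without which caveolae do not form, stood at 179 to 234 FPKM in the controls and at 101, 155 and 147 in E3KO. E3KO lay below all the controls, as for 11.5% of all genes tested, but the difference of -0.58 ± 0.15 (SE) was not called (adjusted p = 0.0710). *Ptrf* is named outside the rule for named genes, after its values were seen. *Ehd2* (-0.09) and *Pacsin2* (-0.22), which shape the caveolar neck and membrane, were not called. Each overlapped the controls, and the sign of *Ehd2* turned when libraries were scaled to the group FPKM (0.04). *Cav3*, the muscle caveolin, was listed at 0 in every library, and *Murc* (cavin 4) did not exceed 0.297 FPKM. Neither cavin was called against either control alone, and without the library labelled E3KO replicate 1 neither was called against both, at -0.77 for *Sdpr* (adjusted p = 0.0638) and -1.13 for *Prkcdbp* (adjusted p = 0.0603). Neither was called when any other E3KO library, EfCtrl replicate 1 or EfCtrl replicate 3 was left out, with adjusted p of up to 0.122 and 0.0948. *Sdpr* was also not called after centring (-0.65, adjusted p = 0.0520) or scaling to the group FPKM (-0.59, adjusted p = 0.0727), while *Prkcdbp* was called after both (adjusted p of 0.0267 and 0.0349).

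**Figure D3:**
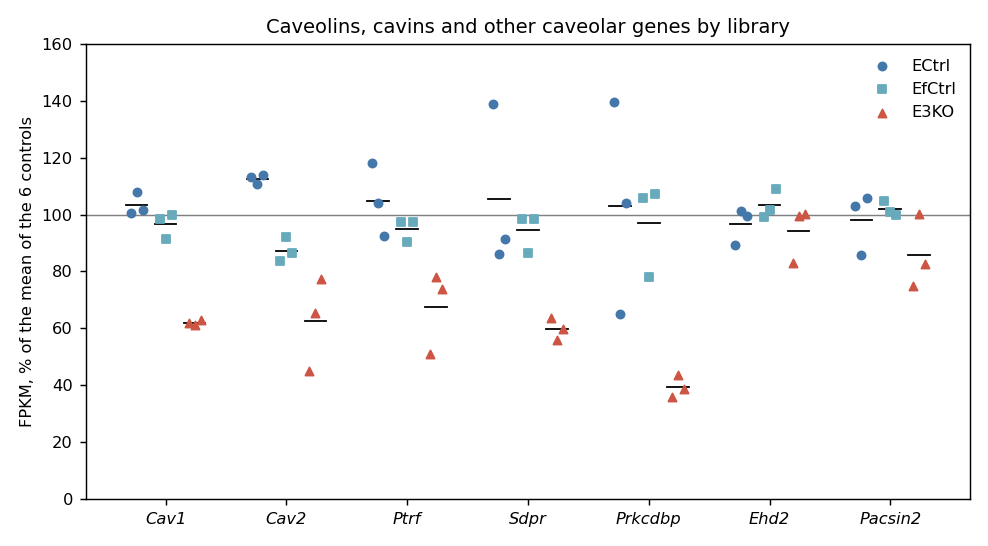
FPKM of the caveolins, the cavins *Ptrf*, *Sdpr* and *Prkcdbp*, *Ehd2* and *Pacsin2* in each library as a percentage of the mean of the 6 controls (y axis, from 0), with a bar at each group's mean. The E3KO points lay below all the controls for the first 5 genes and overlapped them for *Ehd2* and *Pacsin2*.

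The fatty acid genes among the 10 did not pass the test. *Cd36*, a membrane receptor that takes up fatty acids and oxidized lipoproteins, stood at 18.0, 14.2 and 14.5 FPKM in ECtrl, at 14.8, 21.1 and 17.0 in EfCtrl, and at 23.2, 20.03 and 27.5 in E3KO. All 3 E3KO libraries lay above ECtrl, and 2 of them lay above all 6 controls, while EfCtrl replicate 2 exceeded the lowest E3KO library. The E3KO mean was 142% of the control mean. The difference of 0.48 ± 0.15 (SE) had a 95% interval of 0.14 to 0.83 and an unadjusted p of 0.0111, but an adjusted p of 0.104, and the exact permutation p was 0.0357. Without the library labelled E3KO replicate 1 it was 0.49 (adjusted p = 0.164).

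*Fabp4* stood at 2616, 1853 and 2036 FPKM in ECtrl, at 1920, 1915 and 1970 in EfCtrl, and at 2169, 2366 and 1940 in E3KO. The groups overlapped, and the difference from both controls was 0.08 with a 95% interval of -0.21 to 0.37. *Gpihbp1*, whose product carries lipoprotein lipase to the capillary lumen, stood at 10.2, 9.45 and 14.5 FPKM in ECtrl, at 10.9, 6.79 and 6.96 in EfCtrl, and at 11.1, 12.0 and 8.63 in E3KO. It also overlapped, at 0.13 with a 95% interval of -0.31 to 0.57. Its sign differed between the controls, at -0.09 against ECtrl and 0.34 against EfCtrl.

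Of the 9 other fatty acid genes listed, 6 were tested, with a median of -0.02. In this list 1 gene rose and none fell, where 1.54% of all genes tested rose and 3.26% fell. The gene was *Pparg*, a nuclear receptor that drives genes of fatty acid uptake, *Cd36* and *Fabp4* among them in fat cells and macrophages. *Pparg* stood at 12.9, 12.1 and 8.83 FPKM in ECtrl, at 11.3, 11.6 and 10.0 in EfCtrl, and at 17.1, 16.4 and 16.0 in E3KO. E3KO lay above all the controls, as for 5.18% of all genes tested. The difference of 0.54 ± 0.12 (SE) had an adjusted p of 0.0495. It was not called against ECtrl (adjusted p = 0.0957) or EfCtrl (adjusted p = 0.114) alone. *Pparg* was not called without the library labelled E3KO replicate 1 (0.51, adjusted p = 0.0911), and of the other 8 libraries only the omission of ECtrl replicate 3 left the call in place (adjusted p of up to 0.127). *Meox2* and *Tcf15*, transcription factors of fatty acid transport in heart and muscle capillaries, did not exceed 0.333 FPKM.

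Values of *Plvap* were 772, 447 and 540 FPKM in ECtrl, 651, 479 and 585 in EfCtrl, and 485, 470 and 513 in E3KO. Each E3KO value lay inside the range of the controls, and the difference from both was -0.22 with a 95% interval of -0.62 to 0.19. The annotation places *Gtpbp3* on the opposite strand over part of *Plvap*. *Kit*, the receptor of stem cell factor and a marker of general capillary cells, stood at 21.4, 31.5 and 36.6 FPKM in ECtrl, at 28.3, 25.8 and 28.0 in EfCtrl, and at 26.3, 25.6 and 24.3 in E3KO. It overlapped in the same way, at -0.15 with a 95% interval of -0.51 to 0.21. Mast cells also express *Kit*, and of 7 mast cell genes 4 were listed at 0 in all 9 libraries and the others did not exceed 0.507 FPKM.

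*Tmem100*, which encodes a membrane protein induced by BMP9 and BMP10 through the receptor ALK1, varied most between controls among the 8 genes tested, with an SD of 39.1% of its mean. It stood at 13.7, 7.85 and 5.61 FPKM in ECtrl, at 9.18, 4.48 and 9.78 in EfCtrl, and at 5.02, 4.76 and 4.28 in E3KO. E3KO lay below ECtrl but overlapped EfCtrl. The E3KO mean was 55.5% of the control mean, and the difference of -0.66 ± 0.29 (SE) was not called (95% interval -1.32 to 0.00, adjusted p = 0.211, exact permutation p = 0.0714). Without the library labelled E3KO replicate 1 it was -0.70 (adjusted p = 0.284). Of 7 other genes of the ALK1 pathway 6 were tested and none was called by limma. Of the 6, 1 had an unadjusted p under 0.05, as had 2522 of all 10605 genes tested in this comparison. It was *Id3* (-0.59, limma, adjusted p = 0.141), while *Id1* differed in the other direction (0.40, not called). Both are named after their values were seen. The median of the 6 was -0.04, with 3 of them below 0, and *Acvrl1*, which encodes ALK1 itself, was at -0.14.

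Prostaglandin genes outside the 10 differed, while *Hpgd* could not be tested. Of 7 listed, 5 were tested, and 2 rose and none fell, where 1.54% of all genes tested rose and 3.26% fell. Of the 2, *Slco2a1* reached the minimum of 2 FPKM only in the mean of E3KO. At its control level it could enter the test only by rising, so the count is partly set by the minimum. *Slco2a1*, the transporter that takes up prostaglandins, stood at 0.338, 0.978 and 1.33 FPKM in ECtrl, at 0.539, 1.27 and 0.970 in EfCtrl, and at 4.89, 4.89 and 8.38 in E3KO. The mean rose from 0.906 to 6.06 FPKM, and the difference of 1.88 ± 0.23 (SE) was called against both controls together (adjusted p = 0.0110) and against each alone (0.0214 and 0.0326). *Ptgs2*, the inducible cyclooxygenase that makes prostaglandin precursors, stood at 0.583 to 3.44 FPKM in the controls and at 11.4, 9.16 and 15.9 in E3KO. It differed by 1.97 ± 0.33 (SE) with an adjusted p of 0.0204, and was called against ECtrl alone (adjusted p = 0.0368) but not against EfCtrl alone (adjusted p = 0.0678). Both were also called against both controls together without the library labelled E3KO replicate 1, each at 1.99 (adjusted p of 0.0237 and 0.0423). In that fit *Slco2a1* was called against ECtrl alone (adjusted p = 0.0331) and not against EfCtrl alone (adjusted p = 0.0510), and *Ptgs2* against neither (adjusted p of 0.0582 and 0.0948). Without E3KO replicate 3 neither was called, at 1.66 (adjusted p = 0.0672) and 1.77 (adjusted p = 0.0899), and *Ptgs2* was not called without EfCtrl replicate 1 or 3 (adjusted p of 0.0570 and 0.0590). The median of the 5 genes was 0.30.

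**Figure D4:**
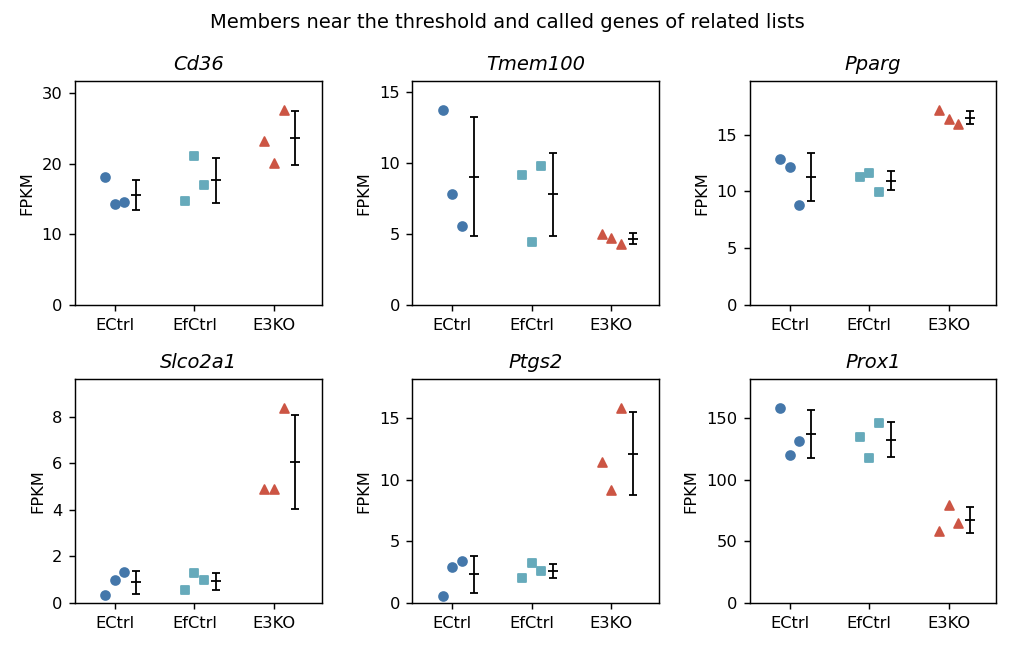
FPKM in each library (y axes, from 0) of *Cd36* and *Tmem100*, which did not pass the test, and of *Pparg*, *Slco2a1*, *Ptgs2* and *Prox1*, which did, with the mean and SD of each group (n = 3) beside the points. *Cd36* and *Tmem100* overlapped between E3KO and EfCtrl, and the other 4 genes did not overlap between E3KO and any control.

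No gene of the capillary marker lists was called in E3KO against the mean of both controls. Of 7 aerocyte genes 3 were tested, with 0 called by limma. All 3 had an unadjusted p under 0.05, 2 of them higher and 1 lower, beside 2522 of all 10605 genes tested. *Ednrb*, an endothelin receptor, and *Apln*, which encodes the ligand apelin, were the 2 higher, and *Chst1*, a sulfotransferase, was the lower. These 3 are named after their values were seen. *Ednrb* stood at 50.8 to 82.8 FPKM in the controls and at 83.4, 124 and 143 in E3KO, a difference of 0.74 (adjusted p = 0.0689). That gene was called without the library labelled E3KO replicate 1 (0.96, adjusted p = 0.0298), when each library was centred on its median (0.81, adjusted p = 0.0476) and when scaled to the group FPKM (0.87, adjusted p = 0.0439). *Apln* stood at 79.0 to 182 FPKM and at 187, 193 and 215, a difference of 0.79 (adjusted p = 0.0910), and was called without ECtrl replicate 2 (0.93, adjusted p = 0.0344). *Ednrb* and *Apln* lay above all 6 controls in E3KO, as did 5.18% of all genes tested. *Chst1* stood at 13.3 to 20.2 FPKM in the controls and at 9.44, 13.9 and 14.8 in E3KO, which overlapped, a difference of -0.41 (adjusted p = 0.181). *Emp2*, too low to be tested, stood at 1.20 to 2.04 FPKM in the controls and at 0.403, 0.698 and 0.742 in E3KO. The median of the 3 was 0.74. Of 7 general capillary genes 5 were tested, with 0 called, 1 at an unadjusted p under 0.05 and a median of 0.14.

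Markers of other cells moved with some of these results. Of 8 pan-endothelial genes none was called and 0 had an unadjusted p under 0.05 (limma), at a median of 0.02. Over all 10605 genes tested, 2522 had an unadjusted p under 0.05. Of 6 lymphatic genes all were tested, and *Prox1*, *Reln* and *Ccl21a* fell, at a median of -0.62, where 3.26% of all genes tested fell. *Prox1* stood at 58.1, 79.2 and 64.7 FPKM in E3KO (adjusted p = 0.0131), and *Reln*, an extracellular matrix protein, stood at 50.2 to 81.0 FPKM in the controls and at 34.7, 33.4 and 32.7 in E3KO (adjusted p = 0.0167). *Ccl21a*, a lymphatic chemokine, averaged 4.99 FPKM in the controls and 0.773 in E3KO (adjusted p = 0.0381). *Lyve1*, *Flt4* and *Pdpn* were not called. Without the library labelled E3KO replicate 1 *Prox1* (-0.89, adjusted p = 0.0285) and *Reln* (-0.98, adjusted p = 0.0343) were called and *Ccl21a* was not (-1.75, adjusted p = 0.0638). Without E3KO replicate 3 none of the 6 was called, with *Prox1* at -0.97 (adjusted p = 0.0746) and *Reln* at -0.94 (adjusted p = 0.0803), and *Ccl21a* kept its call only without ECtrl replicate 1 or 2. The summed lymphatic level ran from 2179 to 2862 FPKM in ECtrl, from 2187 to 2401 in EfCtrl and from 2011 to 2319 in E3KO. Its largest part was *Lyve1*, which averaged 95.1% of the control mean in E3KO. *Prox1*, *Reln* and *Ccl21a* averaged 50.1%, 50.2% and 15.5%, so the sum does not follow them. The part of lymphatic cells in the lower *Cav1* and *Cav2* was not tested.

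Of 9 macrophage genes 5 were tested, with 0 called by limma and 3 at an unadjusted p under 0.05, beside 2522 of all 10605 genes. The sum of the 9 genes ran from 50.5 to 136 FPKM in ECtrl, from 138 to 233 in EfCtrl and from 161 to 293 in E3KO. Its largest part was *Lyz2*, at 28.0 to 191 FPKM in the controls and at 133, 212 and 221 in E3KO. *Cd68* stood at 12.8 to 26.8 FPKM in the controls and at 17.6, 40.3 and 50.6 in E3KO, with *Ptprc* at 1.59 or less in all libraries. *Csf1r* and *Emr1*, both too low to be tested, averaged 103% and 99.2% of the control mean in E3KO. These and *Lyz2* are named after their values were seen. Macrophages also express *Cd36*, *Pparg* and *Ptgs2*. The part of macrophage RNA in their values was not tested.

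Of 10 mesenchymal genes 4 were tested, with 0 called, at a median of -1.36. An unadjusted p under 0.05 was found for 3 of the 4, beside 2522 of all 10605 genes tested. *Acta2*, smooth muscle actin, stood at 4.31, 19.4 and 15.6 FPKM in ECtrl, at 11.6, 28.1 and 35.1 in EfCtrl, and at 4.49, 6.32 and 5.74 in E3KO. The list did not move as one. *Col1a1* and *Col1a2* averaged 12.3% and 12.2% of the control mean in E3KO, but *Dcn* averaged 92.9%. *Pdgfra* and *Pdgfrb*, too low to be tested, averaged 96.5% and 90.0%. These genes besides *Acta2* are named after their values were seen. The mesenchymal sum ran from 8.17 to 32.0 FPKM in ECtrl, from 18.5 to 58.3 in EfCtrl and from 7.00 to 15.6 in E3KO. Mesenchymal cells express caveolins too. The mesenchymal sum of ECtrl replicate 1 (8.17 FPKM) lay within the range of E3KO, and those of all other controls (18.5 FPKM or more) lay above it. The part of mesenchymal cells in the lower caveolins was not tested. *Adipoq* and *Plin1*, which define fat cells, were listed at 0 in every library, and the 5 fat cell genes summed to at most 0.180 FPKM. The 7 alveolar epithelial genes summed to at most 1.00 FPKM in the controls and to 3.40, 0.485 and 0.670 in E3KO.

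**Figure D5:**
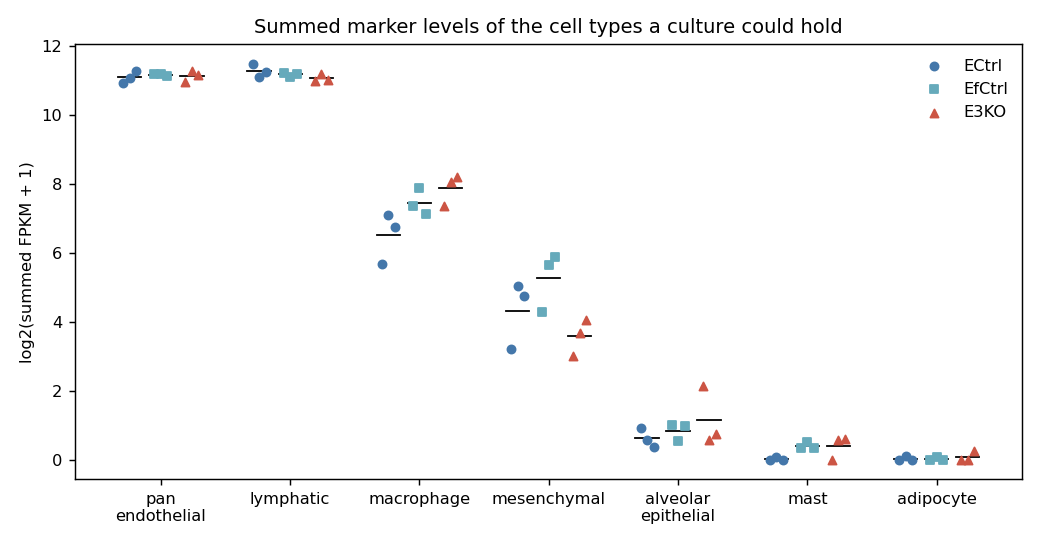
Summed FPKM of each marker list on the log2(sum + 1) scale (y axis) in the 9 libraries, with a bar at each group's mean on this scale. Pan-endothelial and lymphatic sums were high in every library, with *Lyve1* the largest part of the lymphatic sum. Macrophage sums were lowest in ECtrl, and mesenchymal sums were lower in E3KO than in 5 of the 6 controls.

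Among the 8 genes tested, *Plvap* and *Tmem100* varied together over the 9 libraries (Pearson r of 0.80), and *Cav1* and *Cd36* varied in opposite directions (r of -0.82). The 3 genes most like each member, by Pearson r of log2(FPKM + 1) over the same 9 libraries, were *Mapre2*, *Topbp1* and *Cenpe* for *Cav1* (0.98 to 0.99), and *Tubgcp3*, *CT954326.1* and *Pphln1* for *Cav2* (each 0.97). For *Tmem100* the first 2 were *Cadps2* and *Cp* (each 0.98). They were *Apoa1bp*, *Scp2* and *Brd9* for *Plvap* (0.94 to 0.96) and *Epb4.1l1*, *Gsta3* and *Pdrg1* for *Cd36* (0.91 to 0.95). For *Gpihbp1* they were the rows *Dusp19,Nup35*, *Pdhx* and *Mrps23* (0.92 to 0.97), for *Kit* *4933411K20Rik*, *Bace1* and *Tsc1* (0.89 to 0.91), and for *Fabp4* *Kat8*, *Sav1* and *Snx2* (0.88 to 0.90). These are the highest of 10604 values for each gene, and the points share libraries and groups.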

How the data were processed

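Per the labels and the study's methods, the authors aligned 40-base paired reads to mm10 with TopHat, estimated FPKM with Cufflinks 1.0.3 and compared groups with Cuffdiff. The deposited FPKM of each library were used. Columns of the authors' comparisons (fold change, p and q) were not used. Of 37104 loci, 3749 that share a symbol were left out. All 9 libraries entered 1 limma model of 3 groups (limma 3.58.1, R 4.3.3) on the log2(FPKM + 1) scale. It covered 10605 genes that reached 2 FPKM in the mean of any group. Benjamini-Hochberg adjustment ran over all of these, genes were called at an adjusted p under 0.05, and the script was tested on simulated data. Exact permutation tests and tables used Python 3.11.15 with scipy 1.17.1 and pandas 2.3.3. Replicates are separate isolations. Named were the 10 genes, other listed genes called in E3KO against both controls, defining genes of lists that moved with a result, and the 3 genes most like each member, of which 1 is not reported here. The members and lists were chosen with earlier results of these data known. Coordinates are from GENCODE M21 (mm10), with starts counted from 1. Promoters are from RefSeq. Alternatives were another pseudocount, other minima, centring, a mean-variance trend, a replicate block and the omission of each library. Scaling to the group values was added after seeing the data.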

Additional observations from a re-analysis of the deposited data

How the results depend on the processing

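The call of *Cav1* in E3KO against the mean of both controls was kept under each alternative but the omission of E3KO replicate 3. That of *Cav2* was kept with a minimum of 5 FPKM, with a mean-variance trend and without the library labelled E3KO replicate 1. The cause of each lost call was not tested. Members called in this comparison numbered 1 in place of 2 with a pseudocount of 0.1, with no minimum, after centring, with the replicate block and after scaling to the group FPKM, and 0 to 2 when single libraries were left out. Against ECtrl 2 were called in place of 1 with a minimum of 5 FPKM or a mean-variance trend, and 0 to 2 without single libraries. Against EfCtrl 0 were called in place of 1 after scaling to the group FPKM, and 0 to 1 without single libraries. Of the other caveolar genes 2 were called against both controls. With a pseudocount of 0.1, after centring, with the replicate block or after scaling to the group FPKM 1 was called, and with no minimum 0.

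Genes called in E3KO against both controls ran from 9 to 408 when single libraries were left out, in place of 509. Against ECtrl (239) they were 95 with no minimum and 0 to 215 without single libraries. Against EfCtrl (101) they were 17 with no minimum, 64 after scaling to the group FPKM and 1 to 218 without single libraries. Between the controls they were 0 to 4 without single libraries.

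Libraries with the same replicate number are isolations from different mice. Their deviations from the group means correlated at -0.04 to 0.12 (9 pairs), beside -0.21 to 0.08 between libraries of different number (18 pairs). These ranges overlapped, and the highest values were those of pairs with the same number (0.123 and 0.119, each of ECtrl with EfCtrl). Whether libraries of the same number shared a preparation was not tested. The replicate block gave 202 genes called against both controls, 1 against ECtrl and 1 against EfCtrl. With this block *Cav1* was called against both controls (adjusted p = 0.0315), *Cav2* was not (adjusted p = 0.0789), and 0 members were called against ECtrl or EfCtrl alone.

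Signs turned only for differences that were not called. Scaling to the group FPKM turned *Gpihbp1* against ECtrl to 0.024 and *Kit* against EfCtrl to 0.027. Omission of single libraries gave -0.20 to 0.084 for *Gpihbp1* and -0.10 to 0.15 for *Fabp4* against ECtrl. Between the controls it gave -0.19 to 0.21 for *Plvap*, -0.30 to 0.073 for *Kit* and -0.44 to 0.14 for *Tmem100*. When ranked among the tested genes alone, 6 in place of 8 members stood above the median level. A pseudocount of 0.1 left the same number of members, 2, at the smallest permutation p.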
